A study of Mus musculus with 16 samples.

Results

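MiR-155-5p (mmu-miR-155-5p) is the guide strand of miR-155, a microRNA (miRNA) of activated lymphocytes and myeloid cells. It was followed here through every spot that measured it on 16 1-colour Agilent miRNA arrays of whole mouse lung. The rows were chosen by name: 1 of the 611 mouse miRNAs on the array carried the name miR-155, the 5p strand, with 2 probes of 10 spots each, so that 20 spots per array and 320 spots in all were read. MiR-155-3p, the other strand of the hairpin, had 0 rows on the array and so was not analysed here. The question was how the level of this miRNA differed between non-allergic lungs, lungs with allergic airways disease, and allergic lungs of steroid-treated mice.

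The mice were BALB/c, 8 to 12 weeks old. OVA is ovalbumin, an egg protein that serves as the allergen, and Alhydrogel is an aluminium adjuvant that every mouse received. PBS/PBS mice (n = 2 arrays) were given 1 mg Alhydrogel without OVA by i.p. injection on day 0 and were challenged intranasally with PBS. PBS/OVA mice (n = 4) had the same injection and were challenged with 10 μg OVA on days 12, 13, 14 and 15. OVA/OVA mice (n = 6) were sensitised with 50 μg OVA in 1 mg Alhydrogel and challenged with OVA on the same days. OVA/OVA DEX mice (n = 4) were treated in the same way as OVA/OVA mice and received in addition dexamethasone, a synthetic glucocorticoid, at 3 mg/kg i.p. from day 11 on every second day, 1 h before a challenge. Lungs were collected on day 16, 24 h after the last challenge. The sample labels give PBS as the challenge of PBS/PBS mice, whereas the study's methods describe OVA challenge of all mice, and the labels were followed. Nothing in the labels says that each array held the RNA of a separate animal, so p-values measure the spread between these arrays, which may be technical in part.

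MiR-155 is cut from a hairpin within the transcript of its host gene, the long non-coding RNA Mir155hg, which is switched on when T cells, B cells, macrophages and dendritic cells are activated. The mature strand is loaded into an Argonaute protein and pairs through its seed, bases 2 to 8, with sites in target mRNAs, whose translation and stability fall. Glucocorticoids are broadly anti-inflammatory and are known to lower the activity of NF-κB and AP-1, transcription factors that act on the host gene in immune cells. In a whole lung, fewer cells of a type and less RNA per cell cannot be told apart.

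The mature strands are shown because the array measured the first of them, with the seed in capitals. They were taken from RefSeq (GRCm38.p6), where the hairpin lies at chr16:84714140-84714204 on the plus strand, the 5p strand at 84714143 to 84714165 and the 3p strand at 84714182 to 84714202.
miR-155-5p: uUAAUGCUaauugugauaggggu
miR-155-3p: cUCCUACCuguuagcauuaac

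The whole hairpin shows how the strands lie to each other, with both mature strands in capitals. Of its 65 bases, positions 4 to 26 are miR-155-5p and positions 43 to 63 are miR-155-3p.
Mir155 hairpin: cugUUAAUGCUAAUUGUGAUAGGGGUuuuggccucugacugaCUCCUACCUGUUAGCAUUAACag

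No other miRNA with a sequence to compare had this seed. Of the 611 mouse miRNAs on the array, 480 were matched to a RefSeq mature sequence, and 0 of these shared the 7 seed bases of miR-155-5p. Among all 1679 RefSeq mouse mature sequences, 1 held the seed, which was miR-155-5p itself. The longest run of bases that miR-155-5p shared with another matched miRNA of the array was 8, with miR-101b-3p.

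MiR-155-5p was detected on every array, with fewer spots well above background in the steroid-treated group. Feature Extraction, the scanner software, called it detected on 16 of 16 arrays. Of the 320 spots, 0 were saturated, 14 carried an outlier flag and were left out, and 293 were well above background. On the 12 arrays of the other groups all 20 spots were well above background, whereas on the OVA/OVA DEX arrays 10, 13, 19 and 11 of 20 were. Most that fell short were spots of probe 1, the dimmer probe, of whose 10 spots 0, 3, 9 and 3 were well above background there, compared with 10, 10, 10 and 8 of probe 2. Probe 1 had mean signals of 12.1 to 18.3 on those arrays. Negative control spots averaged 1.74 to 3.47 over the 16 arrays.

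Before any scaling between arrays, OVA/OVA lungs held the brightest signals of miR-155-5p and OVA/OVA DEX lungs the dimmest. The summed signal of both probes, with the background fitted by the scanner software subtracted, was 133 and 232 in PBS/PBS. In PBS/OVA it was 115, 130, 117 and 153 in replicates 1 to 4. In OVA/OVA it ran from 174 to 649 with a median of 348. In OVA/OVA DEX it was 54.9, 56.1, 78.7 and 77.5. The 6 OVA/OVA arrays lay above all PBS/OVA and OVA/OVA DEX arrays and overlapped with PBS/PBS, where replicate 2 exceeded OVA/OVA replicates 5 and 6. All 4 OVA/OVA DEX arrays lay below every array of the other groups.

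Arrays differed in total brightness, and not evenly between groups. The signal summed over all mouse miRNAs was 253333 to 734606 on the OVA/OVA arrays and 501545 to 640549 on those of steroid-treated mice, compared with 494814 to 720095 in PBS/OVA and with 795089 and 942144 in PBS/PBS. As a share of this sum, miR-155-5p made up 0.465 to 1.16 per mille in OVA/OVA, whereas PBS/OVA had 0.162 to 0.276 per mille, PBS/PBS had 0.167 and 0.247 per mille and OVA/OVA DEX had 0.0876 to 0.157 per mille. On this scale the OVA/OVA arrays stood above all others and the OVA/OVA DEX arrays below all others, without overlap. Among the 224 to 301 miRNAs detected on an array, the signal of miR-155-5p ranked 86 to 105 in OVA/OVA, counted from the brightest, compared with 128 to 148 in the control groups and 150 to 180 in OVA/OVA DEX. Ranks across miRNAs are a description only, since probes differ in brightness for the same amount of RNA.

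For the comparisons, the signals of an array were divided by their own 75th percentile, taken over 206 miRNAs that were detected throughout, giving the scaled signal. The scaled signal of miR-155-5p was 86.7 and 125 in PBS/PBS. It was 93.6, 130, 88.2 and 152 in PBS/OVA. OVA/OVA replicates 1 to 6 had 480, 604, 552, 292, 266 and 406. OVA/OVA DEX replicates 1 to 4 had 56.6, 49.8, 94.9 and 80.3. The lowest OVA/OVA array was thus above the highest array of every other group, whereas the other 3 groups overlapped with each other.

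**Figure D1:**
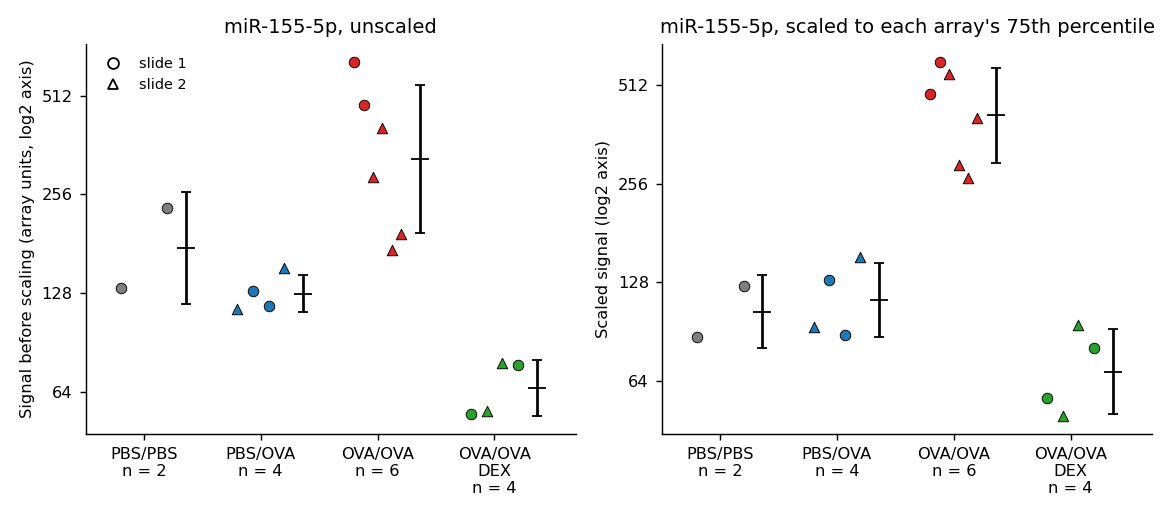
Signal of miR-155-5p on each of 16 arrays, before scaling (left, array units) and after division by the array's 75th percentile (right), both on log2 axes. Points are arrays (circles slide 1, triangles slide 2) and bars are the mean ± SD of the log2 values. The 6 OVA/OVA arrays, 266 to 604 after scaling, lie above all others on the right, whereas on the left they overlap with PBS/PBS.

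On the log2 scale the mean was 8.69 ± 0.485 (SD, n = 6) in OVA/OVA, 6.82 ± 0.378 (n = 4) in PBS/OVA, 6.70 ± 0.371 (n = 2) in PBS/PBS and 6.09 ± 0.433 (n = 4) in OVA/OVA DEX. In this order of means, the arrays of OVA/OVA did not overlap with those of the next group, whereas PBS/OVA and PBS/PBS, and PBS/PBS and OVA/OVA DEX, were neighbours whose arrays overlapped. All 4 groups were fitted in 1 limma model, and a miRNA was called when its Benjamini-Hochberg adjusted p over the 266 tested miRNAs was under 0.05 with a change of 2-fold or more. There were 6 comparisons between groups. Their precision is limited by the number of arrays.

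MiR-155-5p was higher in allergic lungs than in lungs that were challenged without sensitisation. The difference of OVA/OVA from PBS/OVA was 1.87 on the log2 scale (SE 0.269, 95% CI 1.29 to 2.45), or 3.66-fold, with a limma adjusted p of 0.000336. All 6 OVA/OVA arrays were above all 4 PBS/OVA arrays (exact permutation test, two-sided p = 0.00952, the smallest that 6 arrays against 4 allow). In this comparison 5.26% of the tested miRNAs were called, 3.38% as higher and 1.88% as lower, and 10.9% were higher without overlap of the arrays. By size, miR-155-5p had the largest called rise and ranked 2 of 266. The miRNA above it, miR-494-3p, differed by 1.90 with an adjusted p of 0.139 and was not called.

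The difference from PBS-challenged mice was of similar size. The log2 difference of OVA/OVA from PBS/PBS was 1.99 (SE 0.340, 95% CI 1.26 to 2.73), or 3.98-fold, with a limma adjusted p of 0.0018. Here 9.02% of the tested miRNAs were called, 6.02% as higher and 3.01% as lower, and 25.9% were higher without overlap. With 6 arrays against 2 the exact permutation test gave a two-sided p of 0.0714, the smallest it can give. MiR-155-5p ranked 7 of 266 by size and 4 of the 206 miRNAs detected on all arrays. Among miRNAs detected on all arrays, miR-135b-5p (2.23) and miR-139-3p (2.08) were called with larger differences, and miR-494-3p (2.76) was larger and not called. MiR-721, miR-680 and miR-877-5p were also called above it, but they were detected on 0, 1 and 1 of the 2 PBS/PBS arrays, so that their place in the order is uncertain.

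Between steroid-treated and untreated allergic lungs the difference of miR-155-5p was the largest of the 6. OVA/OVA exceeded OVA/OVA DEX by 2.60 on the log2 scale (SE 0.269, 95% CI 2.03 to 3.18), or 6.08-fold, with a limma adjusted p of 1.58e-05. No array of either group overlapped with the other (exact permutation test, two-sided p = 0.00952). Of the tested miRNAs, 12.8% were called in this comparison, 9.4% as higher and 3.38% as lower in OVA/OVA, and 14.7% were higher without overlap. MiR-155-5p ranked 5 of 266, after miR-494-3p (3.20), miR-721, miR-877-5p and miR-680, which were all called. In OVA/OVA DEX the last 3 were above background on 0 of 4 arrays, which leaves their differences without an exact size. Among the 206 miRNAs detected on all arrays miR-155-5p ranked 2.

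**Figure D2:**
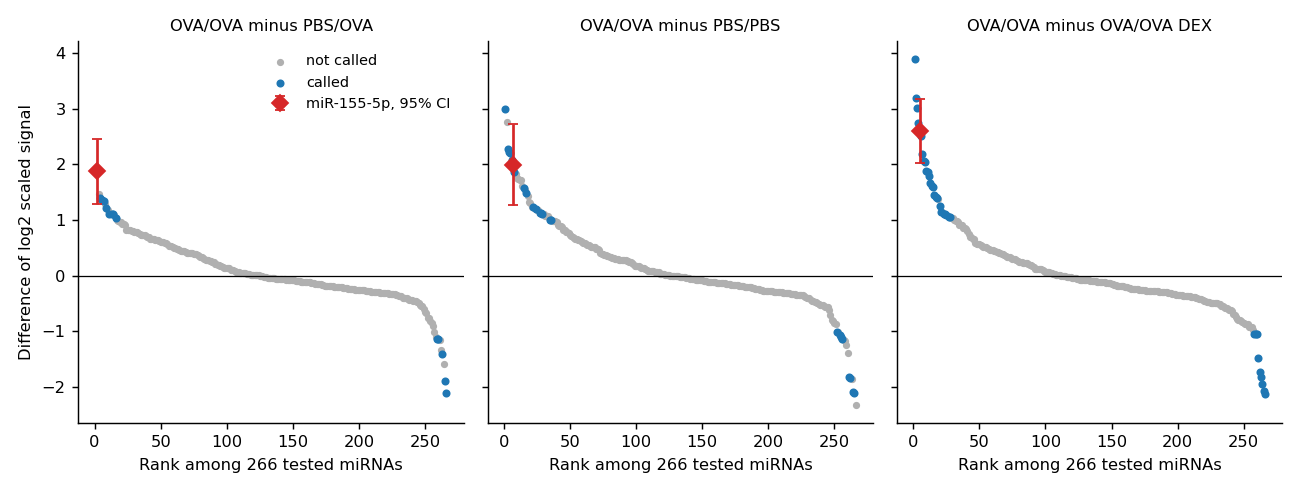
Differences of log2 scaled signal for all 266 tested miRNAs, ranked from the highest, in the comparisons of OVA/OVA with PBS/OVA (left), PBS/PBS (middle) and OVA/OVA DEX (right). Blue points are called miRNAs, and the red diamond is miR-155-5p with its 95% CI, at rank 2, 7 and 5. The 3 comparisons share the 6 OVA/OVA arrays.

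Steroid-treated lungs did not pass the test of a difference from the non-allergic groups. OVA/OVA DEX differed from PBS/OVA by -0.73 (SE 0.295, 95% CI -1.36 to -0.10), which is 1.66-fold lower, with a limma adjusted p of 0.159 and an exact permutation p of 0.0857. In this comparison 0.752% of the tested miRNAs were called. The interval, which is not adjusted for the number of miRNAs, lay below 0, and replicate 3 of OVA/OVA DEX (94.9) was above replicates 1 and 3 of PBS/OVA (93.6 and 88.2). Against PBS/PBS the difference was -0.61 (SE 0.361, 95% CI -1.39 to 0.17), with a limma adjusted p of 0.661 and 0.0% of the miRNAs called (18 of 266 had an unadjusted limma p under 0.05). The exact permutation test gave a two-sided p of 0.267 for this pair, and the smallest that 4 arrays against 2 allow is 0.133.

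OVA challenge without sensitisation gave no call for miR-155-5p. PBS/OVA differed from PBS/PBS by 0.12 (SE 0.361, 95% CI -0.66 to 0.90), with a limma adjusted p of 0.997 and an exact permutation p of 0.533. The interval leaves room for a change of up to 1.86-fold upwards. Of all tested miRNAs 0.376% were called, namely miR-135b-5p at 1.81. In the other direction the interval reaches -0.66, so that with 2 PBS/PBS arrays neither a small rise nor a small fall was detectable.

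The 2 probes gave the same order of groups. Probe 1 (A_54_P2336) averaged 37.5 to 147 in OVA/OVA, compared with 26.7 to 37.7 in PBS/OVA, 32.0 and 58.8 in PBS/PBS and 12.1 to 18.3 in OVA/OVA DEX, in array units before scaling. Probe 2 (A_54_P2337) averaged 136 to 502 in OVA/OVA, compared with 85.9 to 115 in PBS/OVA, 101 and 174 in PBS/PBS and 42.8 to 61.8 in OVA/OVA DEX. After scaling, OVA/OVA exceeded PBS/OVA by 1.75 (SE 0.281) with probe 1 and by 1.91 (SE 0.275) with probe 2 on the log2 scale. Against PBS/PBS the differences were 1.85 and 2.04, and against OVA/OVA DEX they were 2.63 and 2.60. Each of these 6 values was called in a limma fit over 646 probes, with adjusted p from 3.78e-05 to 0.00403. Probes of 1 miRNA share their target and are not replicates.

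Probe 2 was brighter than probe 1 on every array, by a factor that was not constant. The ratio was 3.31 to 3.95 on the OVA/OVA DEX arrays and 3.26 to 3.63 on the OVA/OVA arrays, whereas PBS/OVA had 2.98 to 3.38 and PBS/PBS had 2.95 and 3.16. Among the 10 spots of probe 1 the coefficient of variation was 4.20 to 15.7% in OVA/OVA, compared with 12.5 to 30.2% in OVA/OVA DEX, and for probe 2 it was 3.43 to 8.02% and 5.27 to 12.4%. The values of OVA/OVA DEX are therefore the least precise within an array.

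**Figure D3:**
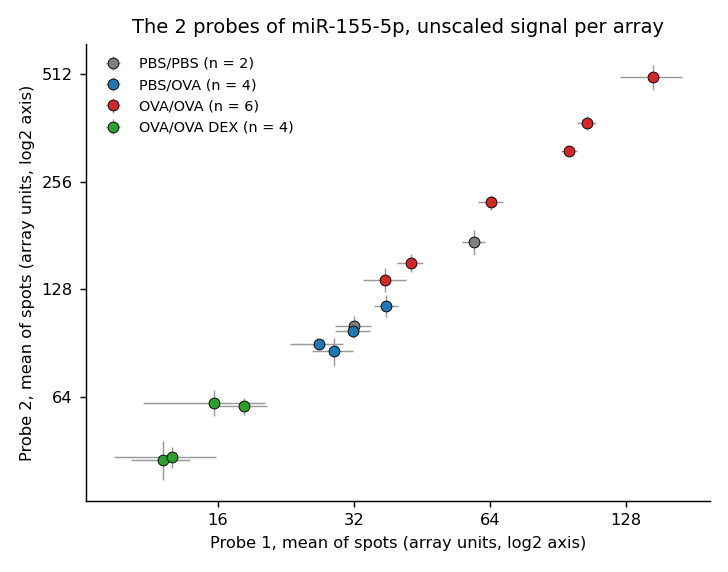
Mean signal of probe 1 (x axis) and probe 2 (y axis) of miR-155-5p before scaling, in array units on log2 axes, 1 point per array, with the SD over the spots of a probe as lines. Both probes place the OVA/OVA DEX arrays lowest (probe 1 at 12.1 to 18.3), and replicate 2 of PBS/PBS lies among the OVA/OVA arrays on this unscaled axis.

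The arrays lay on 2 slides, which were also the 2 scans. Slide 1 held 2 arrays of each group, and slide 2 held 2 of PBS/OVA, 4 of OVA/OVA, 2 of OVA/OVA DEX and 0 of PBS/PBS. On slide 1 the scaled signals of OVA/OVA were 480 and 604, on slide 2 they were 266 to 552, and the arrays of each group that was on both slides overlapped between them. Within slide 1, OVA/OVA exceeded PBS/OVA by 2.33, PBS/PBS by 2.37 and OVA/OVA DEX by 3.00 on the log2 scale, and all 3 were called. Within slide 2 it exceeded OVA/OVA DEX by 2.40, which was called, and PBS/OVA by 1.60, with a limma adjusted p of 0.0955, which was not. With the slide as a block in the fit of all arrays, the differences were 1.90, 2.11 and 2.63, all called.

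Scaling set part of the size of these differences. Without it the 266 tested miRNAs had a median difference of -0.56 between OVA/OVA and PBS/OVA, of -1.11 between OVA/OVA and PBS/PBS and of -0.38 between OVA/OVA and OVA/OVA DEX, compared with medians of -0.04, -0.02 and -0.09 after scaling. The unscaled differences of miR-155-5p were 1.36 (limma adjusted p = 0.0578), 0.90 (limma adjusted p = 0.0891) and 2.31 (limma adjusted p = 0.0003), of which the last was called. Relative to the median of all tested miRNAs, miR-155-5p was higher in OVA/OVA by 1.92, 2.01 and 2.69 with scaling, and by 1.91, 2.01 and 2.69 without it, as dividing an array by a constant moves all its miRNAs alike. Normexp background correction, which does not, was run with an offset of 50 added to each spot. Such an offset narrows the log2 differences of dim miRNAs. With normexp these values were 1.02, 1.04 and 1.38, and the part of the offset in them was not tested. The direction was the same under each of 4 other scalings or background corrections, where the differences were 1.31 to 1.72 from PBS/OVA, 1.33 to 1.65 from PBS/PBS and 1.53 to 2.53 from OVA/OVA DEX, all called.

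**Figure D4:**
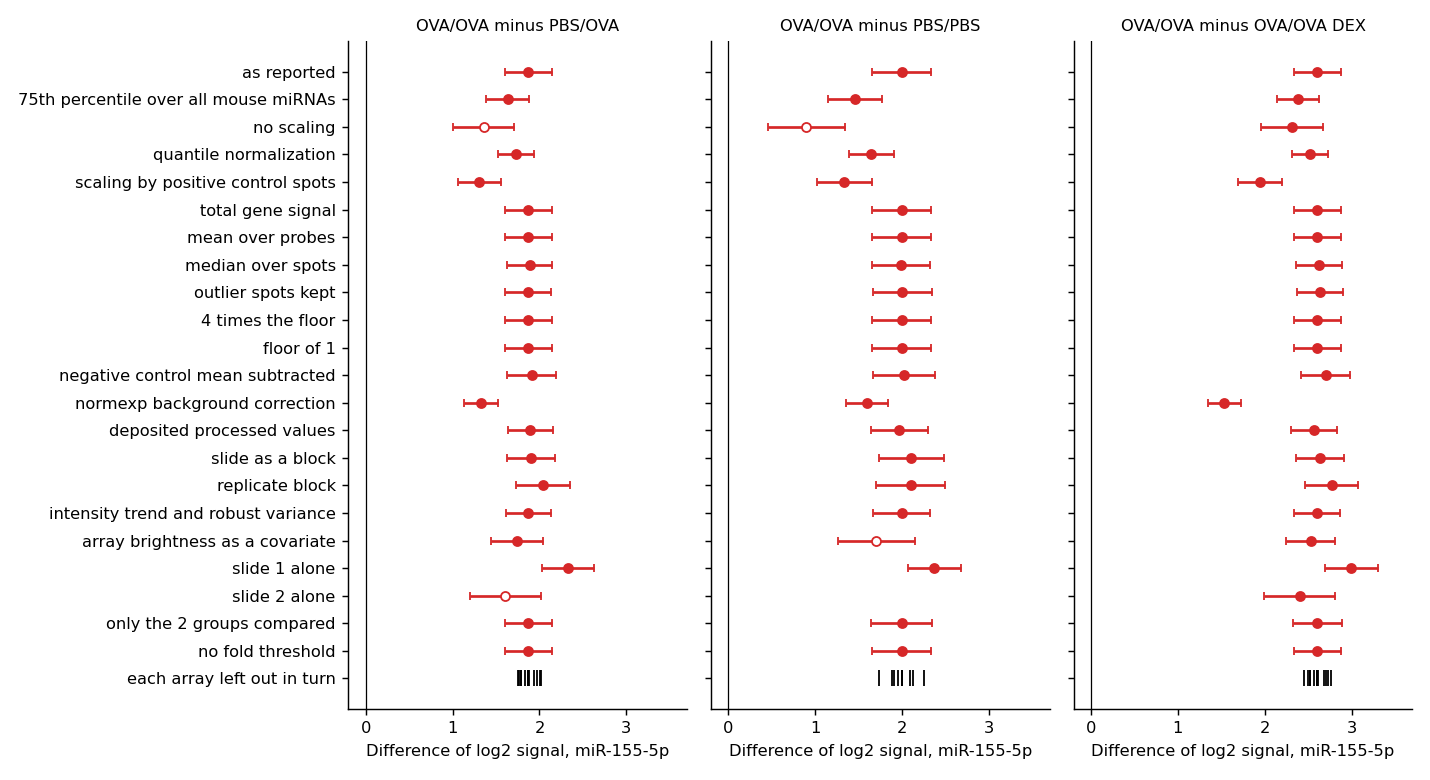
Difference of log2 signal of miR-155-5p between OVA/OVA and each other group as reported and under alternatives of the processing and the limma fit, with ± 1 SE. The exact tests, which keep the value as reported, and the other detection filters are not drawn. Filled points were called, open points were not, and ticks in the bottom row are the values with 1 array left out in turn. All points drawn lie above 0, and the open ones are those without scaling (1.36 and 0.90), with array brightness as a covariate (1.70) and on slide 2 alone (1.60).

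A list of 7 haematopoietic miRNAs, as markers of leukocytes, was detected on all 16 arrays. Their summed scaled signal was 35265 to 50597 in OVA/OVA, compared with 18552 to 27346 in PBS/OVA, 23515 and 26094 in PBS/PBS and 20807 to 29520 in OVA/OVA DEX, so that OVA/OVA did not overlap with the other groups. Most of this sum was miR-142-3p, at 24754 to 37087 in OVA/OVA. Against PBS/OVA, 2 of the 7 were called higher and 0 lower, where 3.38% of all tested miRNAs were called higher, and the list's median difference was 0.56, beside -0.04 for all tested miRNAs. The called members were miR-142-3p (1.03), found across blood cell lineages, and miR-223-3p (1.12), a myeloid miRNA most abundant in neutrophils. MiR-150-5p, which is abundant in mature lymphocytes, differed by 0.56 with a limma adjusted p of 0.0453 and stayed under 2-fold. MiR-181a-5p (-0.21) and miR-146a-5p (-0.29) lay below PBS/OVA and were not called. The count of 2 was between 0 and 2 over 37 alternatives, and miR-142-3p lost its call under 11 of 38.

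Against PBS/PBS and OVA/OVA DEX the same list gave 1 call of 7 each, where 6.02% and 9.4% of all tested miRNAs were called higher. MiR-223-3p was higher than in PBS/PBS by 1.22, and miR-142-3p was higher than in OVA/OVA DEX by 1.05. The list's medians were 0.45 and 0.51. MiR-223-3p in OVA/OVA exceeded OVA/OVA DEX by 0.51 with a limma adjusted p of 0.0143, under the 2-fold limit, and its arrays overlapped. The part of leukocyte number in the level of miR-155-5p was not tested.

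Of the markers of other cell types, some were called in these comparisons. Of 3 miRNAs listed for red cells, 2 were found on the array by name, and miR-486-5p was not. The summed signal of those 2, miR-451 and miR-144-3p, was 36986 to 70438 in OVA/OVA. It was 47860 to 87243 in PBS/OVA, 72736 and 79413 in PBS/PBS and, highest of the groups, 100092 to 136112 in OVA/OVA DEX. Neither miRNA was called between OVA/OVA and PBS/OVA or PBS/PBS. Against OVA/OVA DEX both were called lower in OVA/OVA, where 3.38% of all tested miRNAs were called lower. MiR-126-3p and miR-126-5p of endothelium, together 30554 to 40853 in OVA/OVA, compared with 40697 to 48460 in OVA/OVA DEX, and the 6 epithelial miRNAs of the miR-200 family and miR-205, of which 5 were tested, together 9094 to 9747 and 8546 to 10415, gave 0 calls in that comparison, where 12.8% of all tested miRNAs were called (161 of 266 had an unadjusted limma p under 0.05). Of 6 miRNAs of ciliated epithelium, together 4000 to 5390 in OVA/OVA, compared with 3597 to 4592 in OVA/OVA DEX, 5 were tested. Against OVA/OVA DEX 2 were called higher in OVA/OVA, miR-449a-5p (2.04) and miR-449c-5p, where 9.4% of all tested miRNAs were called higher. Only these 2 of the 5 had a positive difference, and the list's median was -0.28. MiR-449b was detected on 0 arrays. Of 5 miRNAs of striated muscle, together 632 to 2142 in OVA/OVA and 2426 and 2595 in PBS/PBS, 3 were tested and 2 were called lower than in PBS/PBS, miR-133a-3p (-1.13) and miR-133b-3p (-1.11), where 3.01% of all tested miRNAs were called lower, and miR-206 was detected on 0 arrays. MiR-205, an epithelial miRNA, was detected on 1 of 16 arrays, and the others of these lists for endothelium and epithelium on 16 of 16, so that the labelled tissue carried its markers. The part of these cell types in the difference of miR-155-5p was not tested.

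A list of 16 miRNAs responsive to inflammation, without miR-155-5p, gave 0, 2 and 1 calls among 12 tested in the comparisons of OVA/OVA with PBS/OVA, PBS/PBS and OVA/OVA DEX, where 5.26%, 9.02% and 12.8% of all tested miRNAs were called. MiR-9, miR-147, miR-187 and miR-124 were detected on 0 arrays. Against PBS/OVA, 0 of the 12 were called (119 of all 266 miRNAs had an unadjusted limma p under 0.05), with a median difference of -0.06. Against PBS/PBS, 2 were called higher, miR-21-5p (1.48) and miR-146b-5p (1.00), a count that was 0 to 6 over 36 alternatives, and against OVA/OVA DEX 1 was, miR-21-5p (1.45). None was called lower in these 3 comparisons. MiR-21-5p, a miRNA of myeloid and stromal cells, had scaled signals of 56979 to 92657 in OVA/OVA and 32250 to 55711 in PBS/OVA, a difference of 0.92 that was under 2-fold. MiR-146a-5p, a feedback inhibitor of NF-κB signalling through Traf6 and Irak1 that is induced together with miR-155 in stimulated macrophages, differed by -0.29 from PBS/OVA and by 0.06 from OVA/OVA DEX, with limma adjusted p of 0.0597 and 0.673.

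MiRNAs whose levels followed those of miR-155-5p across the arrays were ranked by Pearson's r of the log2 scaled signal over 16 arrays, for the 205 other miRNAs detected on all of them. The values are a description, since the arrays share groups, slides and scale factors. The median r was -0.34, and 12 miRNAs had r above 0.9. The 5 highest were miR-130b-3p (r = 0.963, Spearman's rho = 0.947), miR-7a-5p (0.953, rho = 0.841), miR-21-5p (0.947, rho = 0.938), miR-378-3p (0.940, rho = 0.803) and miR-18a-5p (0.940, rho = 0.815). Ranked by rho, 2 of these 5 were among the 5 highest. The mature sequences of 4 of them, from RefSeq with the seed in capitals, are shown because no seed among these is that of miR-155-5p or of another of the 4.
miR-130b-3p: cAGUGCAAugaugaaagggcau
miR-7a-5p: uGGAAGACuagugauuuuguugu
miR-21-5p: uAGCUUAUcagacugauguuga
miR-18a-5p: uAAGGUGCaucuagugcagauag

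For these 5 the correlations were higher within the OVA/OVA arrays than among the rest. They were picked for their high r over the same 16 arrays, which favours high values here. The values are thus a description only. With the group means subtracted, r over the 16 arrays was 0.654 for miR-130b-3p, 0.723 for miR-7a-5p, 0.75 for miR-21-5p, 0.865 for miR-378-3p and 0.645 for miR-18a-5p, beside a median of -0.16 over the 205. Within the 6 OVA/OVA arrays r was 0.983, 0.974, 0.915, 0.920 and 0.972 in the same order, and within the other 10 arrays it was 0.682, 0.422, 0.672, 0.356 and 0.334. In OVA/OVA, replicates 4 and 5 had the lowest levels of miR-155-5p and also of the other 5 miRNAs, and both lay on slide 2. Replicates 3 and 6, on the same slide, had 552 and 406.

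The range of miR-155-5p was wider than that of any of these 5. MiR-130b-3p, the closest, had scaled signals of 109 to 179 in OVA/OVA, whereas PBS/OVA had 63.0 to 70.2, PBS/PBS had 62.3 and 68.1 and OVA/OVA DEX had 36.1 to 63.7, so that it too was lowest in the steroid-treated group. It was called higher in OVA/OVA than in PBS/OVA (1.11), PBS/PBS (1.13) and OVA/OVA DEX (1.60). MiR-18a-5p, a member of the miR-17 cluster of proliferating cells, was called in the same comparisons at 1.10, 1.19 and 1.24. Of the other 5 miRNAs of that cluster 0 were, where 3.38%, 6.02% and 9.4% of all tested miRNAs were called higher. Positive differences were found for 6, 6 and 5 of the 6 cluster members. The cluster's medians were 0.46, 0.40 and 0.30, beside -0.04, -0.02 and -0.09 for all tested miRNAs. MiR-7a-5p exceeded PBS/OVA by 0.99, just under 2-fold, and was called against PBS/PBS (1.11) and OVA/OVA DEX (1.09). MiR-378-3p was called in all 3, at 1.22, 1.12 and 1.11.

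**Figure D5:**
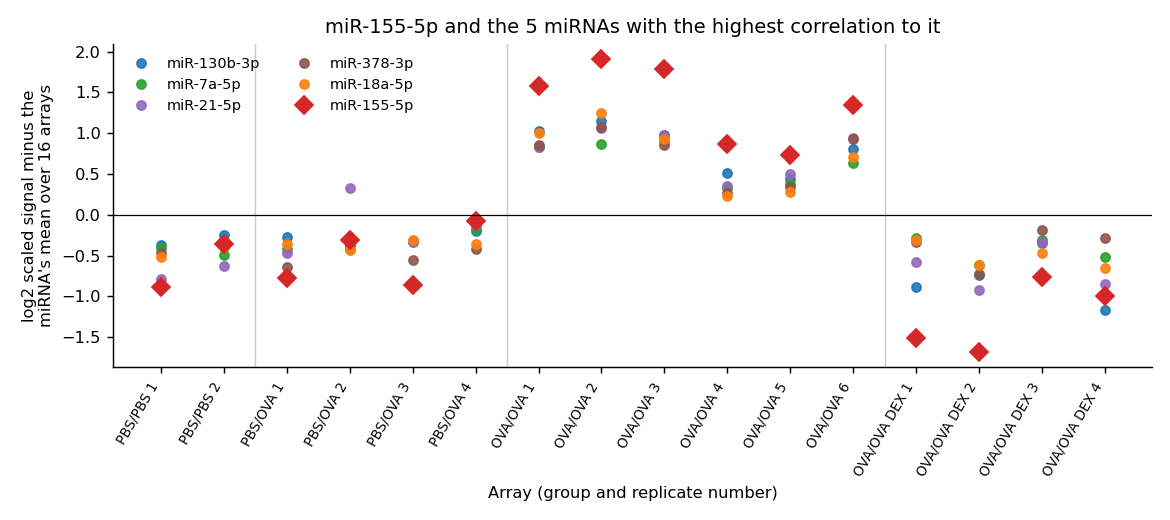
Log2 scaled signal of miR-155-5p (red diamonds) and of the 5 miRNAs with the highest correlation to it, each minus its own mean over the 16 arrays, with arrays on the x axis by group and replicate. All 6 miRNAs lie above their mean on the 6 OVA/OVA arrays and lowest there on replicates 4 and 5, and miR-155-5p spans the widest range.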

How the data were processed

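Total RNA of whole lung had been labelled with Cy3 and hybridised to Mouse miRNA Release 12.0 arrays. Per the labels, the authors used Feature Extraction 10.7.3.1. The authors deposited, per the file headers, spot intensities with a fitted background subtracted and with no normalization between arrays. A deposited table of processed log2 values served as an alternative. It equals the log2 total gene signal of the scanner files plus a shift per array, within 0.066 for miR-155-5p. Its scaling was not given in the sources used here.

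Control and outlier-flagged spots were left out, spots were averaged per probe, probes were summed per miRNA, and the sums of an array were divided by their 75th percentile over 206 miRNAs detected throughout (rescaled to 1700). Before taking log2, lower signals were raised to a floor of 2.60, the median, over the arrays, of the lowest positive signal among detected miRNAs. MiR-155-5p lay above it throughout. Group means were fitted over 16 arrays with limma 3.58.1 (R 4.3.3), with Benjamini-Hochberg adjustment over the 266 miRNAs that all arrays of some group had detected. Python 3.11.15, scipy 1.17.1 and pandas 2.3.3 did the rest.

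The fit was tested on simulated data, where 50 of the 266 miRNAs had been shifted in OVA/OVA. It recovered 90% of these against PBS/OVA (1 false call), 88% against PBS/PBS (2 false calls) and 92% against OVA/OVA DEX (1 false call). All simulated shifts were beyond the 2-fold limit. The simulated noise was independent between miRNAs and arrays, without differences of brightness, slide or scaling, so the rates do not cover such effects in the real arrays. The miRNAs named are miR-155-5p, the 5 most correlated with it, the miRNAs with larger changes, and members of the lists used. Members, lists and tests were chosen with earlier results of these data known. A covariate for array brightness and subtraction of the negative control mean were added after seeing the data. Array replicates follow the sample titles, and 0 columns of per-sample values were left unmapped.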

Additional observations from a re-analysis of the deposited data

How the results depend on the processing

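MiR-155-5p was called higher in OVA/OVA than in OVA/OVA DEX under all 25 alternatives (1.53 to 3.00 on the log2 scale). Some alternatives, such as the exact tests and the other detection filters, keep the reported difference, and the permutation p was not adjusted. Against PBS/OVA miR-155-5p was called under 23 of 25 and against PBS/PBS under 20 of 24. For PBS/PBS, with 6 arrays against 2, neither exact test could reach 0.05. The exceptions were no scaling (1.36 and 0.90), slide 2 alone (1.60 against PBS/OVA), and, against PBS/PBS, array brightness as a covariate (1.70, limma adjusted p = 0.0516), the exact Mann-Whitney test that the methods name (adjusted p = 0.139) and the exact permutation test (p = 0.0714, both at 1.99). Leaving out 1 array at a time gave differences of 1.75 to 2.02, 1.73 to 2.26 and 2.45 to 2.76, all called. A lone PBS/PBS array is then assumed to vary like the other groups. OVA/OVA DEX was below PBS/OVA under all 25 (-0.96 to -0.21) and with each array left out (-0.89 to -0.58) with p from 0.0857 (exact permutation test) to 0.805 (limma adjusted, normexp). Its difference from PBS/PBS was -0.87 to -0.35 with each array left out and turned to 0.058 with normexp background correction. PBS/OVA minus PBS/PBS turned to -0.46 when arrays were not scaled, -0.17 with the percentile over all miRNAs, -0.079 with quantile normalization and -0.033 with array brightness, and was -0.14 to 0.38 with each array left out, below 0 without PBS/PBS replicate 1 or PBS/OVA replicate 4. Neither was called anywhere. Relative to the median of all tested miRNAs, PBS/OVA minus PBS/PBS was 0.10 as reported, without scaling and with the percentile over all miRNAs. It was -0.01 with quantile normalization. Every normexp value includes the offset of 50 added to each spot. The cause of the turns was not tested.

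For probe 1, OVA/OVA DEX minus PBS/PBS turned to 0.24 with normexp, and PBS/OVA minus PBS/PBS to -0.48 when arrays were not scaled and to -0.20 with the percentile over all miRNAs, and with 1 array left out it was -0.20 to 0.40. For probe 2 these values were -0.45 and -0.17, and -0.12 to 0.38. MiR-146b-5p lay below PBS/OVA in OVA/OVA without scaling (-0.077) and with scaling by positive control spots (-0.13), and miR-223-3p below OVA/OVA DEX with the latter (-0.15).

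Of 18 same-numbered pairs of arrays from different groups, 3 deviated together with r over 0.1. Pairs with different numbers were not compared, so whether replicate numbers paired the arrays was not tested. With the replicate number as a block the differences were 2.04, 2.10 and 2.77, and no call on miR-155-5p changed. Counts of called miRNAs moved more, from 14, 24 and 34 to ranges of 0 to 84, 0 to 156 and 7 to 142 over 39 or 40 alternatives. The split of higher to lower calls was 9 to 5, 16 to 8 and 25 to 9 as reported, 0 to 2, 3 to 153 and 13 to 10 without scaling, 1 to 27, 6 to 42 and 10 to 64 with positive control spots, 2 to 6, 7 to 30 and 18 to 19 with the percentile over all miRNAs, 5 to 6, 6 to 15 and 17 to 13 with quantile normalization, and 2 to 0, 30 to 0 and 5 to 2 with normexp. Between 2 and 5 of the 5 most correlated miRNAs were shared with those of each alternative. The 2 PBS/PBS arrays and the dim probe 1 signals in OVA/OVA DEX limit the precision.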
